A study of Zea mays subsp. mays x Zea mays subsp. mexicana with 20 samples.

Results

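The chromosome 2 and chromosome 3 windows are the 487 windows of 1 Mb that tile these chromosomes of the maize inbred W22, of 2127 windows on all 10 chromosomes, and each carries a number of single-nucleotide polymorphisms (SNPs) that the authors counted. They were taken whole, by chromosome name, but this pair of chromosomes was chosen by its SNP counts, which were known to hold short stretches of raised windows, so that every count below is a description and no test was made. There were 245 windows on chromosome 2 and 242 on chromosome 3, and the last of each was shorter than 1 Mb. The study sequenced leaf DNA of 2 lines homozygous for *Tpd1* and *Tpd2*, 1 library each from bulked seedlings. Both descend from 1 plant of teosinte *mexicana* crossed to W22, were maintained separately and were each sequenced as a pool of plants. The line BC8S3 had 8 backcrosses to W22 and 3 selfings, and BC5S2 had 5 backcrosses and 2 selfings by its title, whereas a protocol text gives it 3. The other 18 samples, pools of fertile, semi-sterile and sterile plants, were not analysed here.

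Backcrossing replaces the donor genome with that of the recurrent parent, chromosome by chromosome, because each generation of meiosis can exchange donor for recurrent sequence on either side of a retained locus. Donor sequence that is left in a late backcross lies in blocks whose ends are past crossovers, and selfing brings some of these blocks to homozygosity. *Teosinte Pollen Drive* is a system in which pollen of heterozygotes that lacks the *mexicana* factors is killed. *Tpd1* lies on chromosome 5 and *Tpd2* on chromosome 6. Blocks on other chromosomes can be retained by linkage to a retained locus of their own chromosome, by transmission advantage or by drift. A SNP in the table is a position at which the reads carried only the base that differs from W22, so a block of homozygous *mexicana* sequence is seen as a run of windows with many SNPs, and recovered W22 sequence as windows with few. By its labels the table belongs to BC8S3 and BC5S2 alike, and its single column of counts names neither. Whether a count stands for one line, for SNPs shared by both or for the sum of both is not stated, so each value is the authors' single number, with no replicate. The table holds 279947 SNPs, fewer than the high-confidence SNPs that the paper defined from both lines. A low count in it need not hold for both lines.

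Small interfering RNAs (siRNAs) of *TPD* pollen give these windows a sequence context. They are cut from double-stranded RNA by Dicer-like enzymes, and Argonaute proteins that bind them select in part on the 5′ base. The study lists clusters of such siRNAs by position, and 28 of those listed for *TPD* pollen lie on chromosomes 2 and 3. Their positions were taken as W22 positions because the gene identifiers beside them are those of W22. A window was called raised at 100 SNPs or more, and raised windows side by side made up a stretch. A cluster in a raised window or in a window next to one, by its midpoint, was shown here, which left 3, all on chromosome 3. Raised windows made up 2.67% of the 487, with 10 on chromosome 3 and 3 on chromosome 2, so more windows qualified on chromosome 3. The windows next to them also qualified and are not in that share, so 2.67% is too low a background for the 3 clusters. How the 28 clusters divide between the chromosomes is not given here, and no overlap was tested. Of the 3 clusters shown, only that at chr3:226808809-226810569, in a long terminal repeat element of unknown family, lay in a raised window, that of 871 SNPs. The clusters at chr3:19253900-19255082 and chr3:227262501-227262964, both in PIF/Harbinger DNA transposons, lay just outside a stretch, in windows with 0 and 1 SNPs. The most abundant RNA of each is printed 5′ to 3′ with its 5′ base in capitals, and no strand is assigned to the clusters.
chr3:19253900-19255082: Auccucgaagcuguugccuca
chr3:226808809-226810569: Cuuagauuaauguaguggcaug
chr3:227262501-227262964: Guauuuauccggacuggccagc
The first is 21 bases long and the others 22. Each begins with a different base. No SNP position is given in the table, so whether a SNP falls in one of these clusters was not tested.

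Chromosomes 2 and 3 had 20343 SNPs, or 7.27% of the 279947 in the table (95% Wilson interval 7.17 to 7.36), on 22.9% of the length of the chromosomes. Here and below, intervals cover counting error alone, and SNPs of the same block are inherited together, which makes the intervals too narrow. Chromosome 3 held 17739 of them and chromosome 2 held 2604, although the chromosomes are of nearly the same length (241 and 244 Mb). By the rule of 100 SNPs 10 of 242 windows of chromosome 3 (4.13%) and 3 of 245 of chromosome 2 (1.22%) were raised, against 5.36% of all 2127 windows. At 1000 SNPs or more there were 7 and 2 windows, or 2.89% and 0.816%, against 4.65% of all windows. Both chromosomes lay below the genome-wide share at either limit. That share came mostly from chromosomes 5, 6 and 10, with 24.7%, 19.2% and 8.67% of their windows raised, and the 5 other chromosomes had 0 raised windows. On chromosomes 2 and 3 the lowest raised window held 114 SNPs and the highest of the others held 12. The window of 114 SNPs, on chromosome 2, was close to the limit and was no longer raised at 250 SNPs. The raised windows carried 97.6% of the SNPs of chromosome 3 and 89.9% of those of chromosome 2.

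**Figure D1:**
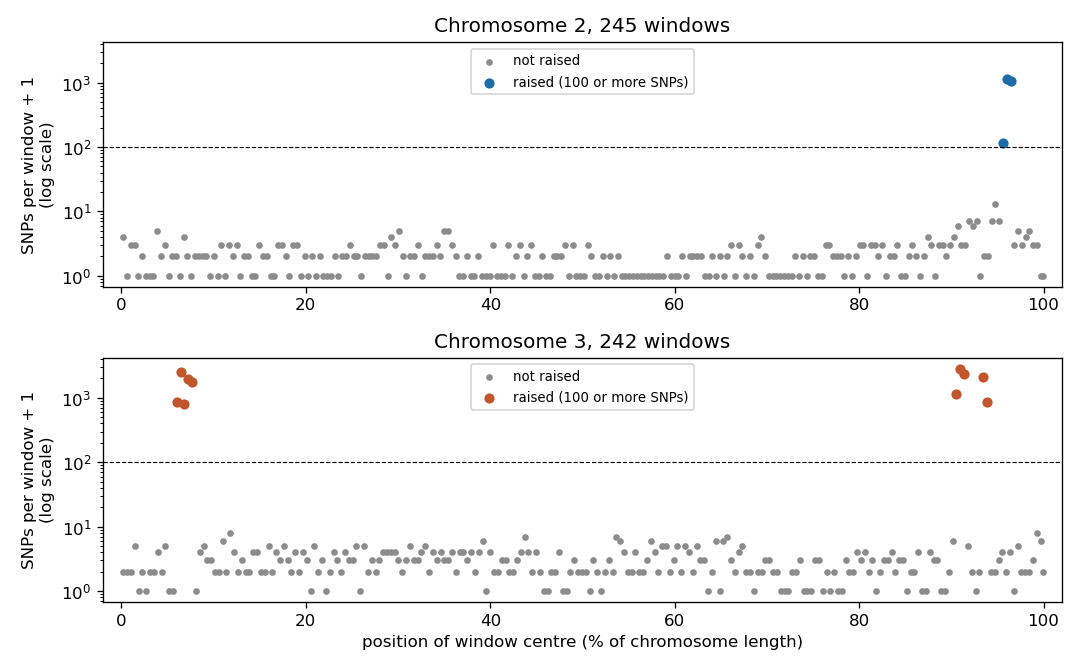
SNPs per window plus 1 on a log scale (y) against the window's centre in percent of chromosome length (x), for the 245 windows of chromosome 2 and the 242 of chromosome 3. Coloured points are the 3 and 10 raised windows, grey points the others, and the dashed line is the limit of 100 SNPs. The raised windows sit near the far end of chromosome 2 and near both ends of chromosome 3.

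Chromosome 2 had a single stretch of raised windows, chr2:233000001-236000000 in W22 coordinates, 8.24 Mb from the end of the chromosome. Its windows held 114, 1154 and 1073 SNPs in order, 2341 in all. The last pair had overlapping 95% Poisson intervals (1088 to 1223 and 1010 to 1139), and the highest window held 10.1 times the count of the opening one. No other raised window in the genome held as few as 114. Outside the stretch, the window before it held 6 SNPs and the window after it held 2. The edges differed in height: the count rose by 19-fold, from 6 to 114, into the opening window, and dropped from 1073 to 2 out of the closing one. If the SNPs form an unbroken block, it is longer than 1 Mb and at most 3 Mb long, because only the middle window must be filled.

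Chromosome 3 had 3 stretches. The first, chr3:14000001-19000000, was 14 Mb from the start of the chromosome and held 873, 2544, 809, 1992 and 1783 SNPs in its 5 windows, 8001 in all. The counts did not fall smoothly towards the ends. The middle window, with 809 SNPs (Poisson interval 754 to 867), was about as low as the opening window, with 873 (816 to 933), and lay between windows of 2544 (2446 to 2645) and 1992 (1905 to 2081). The interval of the middle window overlapped that of the opening window and of neither neighbour. Both flanking windows held 0 SNPs. With an empty window taken as 3 counts the steps at the edges were 291-fold and 594-fold. They are smaller at the 3.69 counts that the Poisson interval of an empty window reaches. An unbroken block here would be longer than 3 Mb and at most 5 Mb long.

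The second stretch of chromosome 3, chr3:218000001-221000000, held 1134, 2829 and 2335 SNPs, a mean of 2099 per window with an SD of 872 over windows, which are not replicates. It had the highest mean of the 4 stretches, and its middle window of 2829 SNPs was the highest on either chromosome. That window has on average 1 SNP every 353 bp, against 1 every 867 bp in the highest window of chromosome 2. Its edges were steep on both sides, with 5 SNPs before it and 4 after it. The third stretch, chr3:225000001-227000000, consisted of 2 windows with 2135 and 871 SNPs, and both windows beside it held 1 SNP. It lay 14.3 Mb from the end of the chromosome.

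Between the second and the third stretch lay 4 windows, chr3:221000001-225000000, with 4, 1, 0 and 1 SNPs. Their mean of 1.5 SNPs per window was not above the 1.87 of all windows of the chromosome that were not raised, these 4 included. The windows that border this gap held 2335 SNPs on one side and 2135 on the other, and their Poisson intervals (2241 to 2432 and 2045 to 2228) did not overlap. Thus 9 Mb near the end of chromosome 3 held a stretch of raised windows, a gap of low counts and a further stretch. The first and second stretches were 199 Mb apart, and no window between them was raised.

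**Figure D2:**
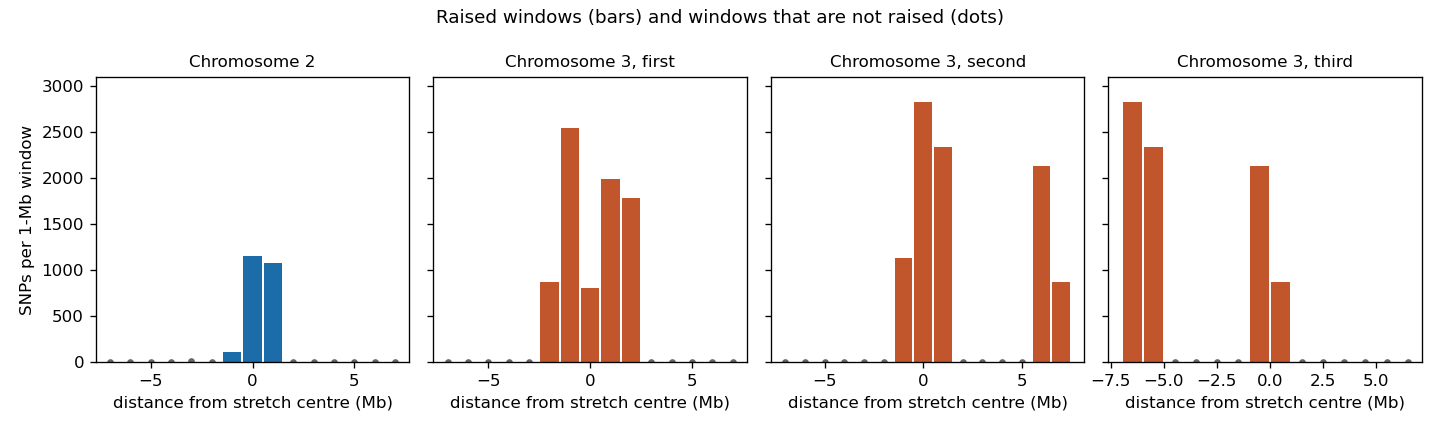
SNPs per 1-Mb window (y, linear from 0) against the distance from the centre of each stretch in Mb (x), for the stretch of chromosome 2 and the 3 stretches of chromosome 3, with raised windows as bars and the others as dots. The panels of the second and the third stretch each show the other stretch across the gap of 4 windows, and the bars of chromosome 2 reach 1154 against 2829 on chromosome 3.

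Set beside the rest of the genome, the 13 raised windows of chromosomes 2 and 3 ranged from 114 to 2829 SNPs with a median of 1154, and the 101 raised windows of chromosomes 5, 6 and 10 from 157 to 6037 with a median of 2551. The ranges overlapped, and the difference was not tested. Of all 114 raised windows, 45 held more SNPs than the highest window of chromosome 3 and 88 held more than the highest of chromosome 2. The 4 stretches had 2 to 5 windows. Such lengths were not confined to these chromosomes, because 3 of the 7 stretches elsewhere, on chromosomes 5 and 6, had 5 windows or fewer. Stretches elsewhere reached 51 windows. By mean count, the stretch of chromosome 2 was the lowest of all 11 at the limit of 100 SNPs, with 780 SNPs per window, next to the shortest stretch of chromosome 6, with 810. This order rested on the window of 114 SNPs, as at a limit of 250 SNPs the mean of chromosome 2 was 1114 and that of the chromosome 6 stretch was still 810. At the limit of 100 SNPs the means of 780 and 810 differ by less than the spread over windows within either stretch (SD 578 and 521). At 250 SNPs the windows left on chromosome 2 held 1154 and 1073, within the range of the chromosome 6 stretch, 441 to 1178. The second stretch of chromosome 3, at 2099, lay within the range of the other chromosomes.

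**Figure D3:**
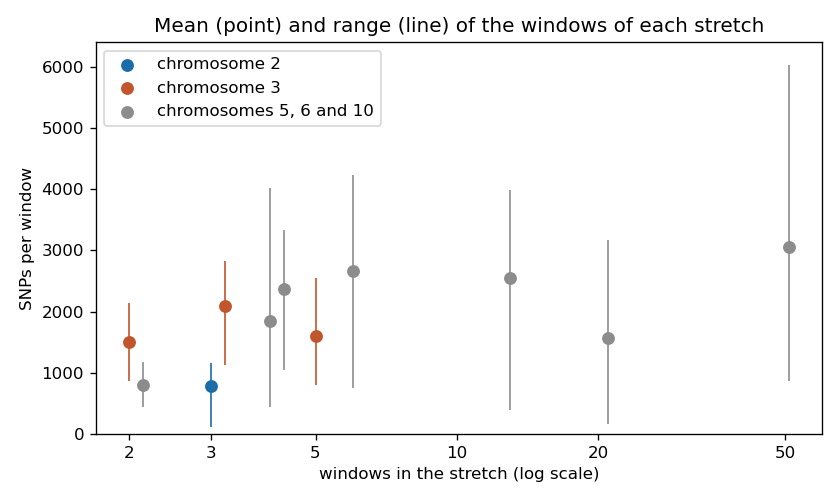
Mean number of SNPs per window (points) and the range over windows (lines) of each of the 11 stretches (y), against its number of windows on a log scale (x), with stretches of equal length set side by side. At the limit of 100 SNPs the stretch of chromosome 2 has the lowest mean, 780 (1114 at a limit of 250, above the 810 of a chromosome 6 stretch), and the 3 stretches of chromosome 3 lie between 1503 and 2099.

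Away from the stretches, the chromosomes differed in their low counts. The 242 windows of chromosome 2 that were not raised held 1.09 SNPs on average (95% Poisson interval 0.959 to 1.23, SD 1.41 over windows), and the 232 of chromosome 3 held 1.87 (1.70 to 2.06, SD 1.47). On the 8 other chromosomes this mean ranged from 1.03 to 2.63. No SNP was counted in 97 windows of chromosome 2, or 39.6% (95% Wilson interval 33.7 to 45.8), and in 36 windows of chromosome 3, or 14.9% (10.9 to 19.9), against 24.0% of all windows. These shares stood near either end of the range of the other chromosomes, 14.0% to 39.6%. Windows with exactly 1 SNP were about as frequent on both, with 78 and 79, and windows with 2 numbered 47 on each. Windows with 3 SNPs numbered 7 on chromosome 2 and 39 on chromosome 3, those with 4 numbered 6 and 18, and those with 5 or more numbered 7 and 13. Depth and the number of callable bases are not in the table, and their part in this difference was not tested.

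**Figure D4:**
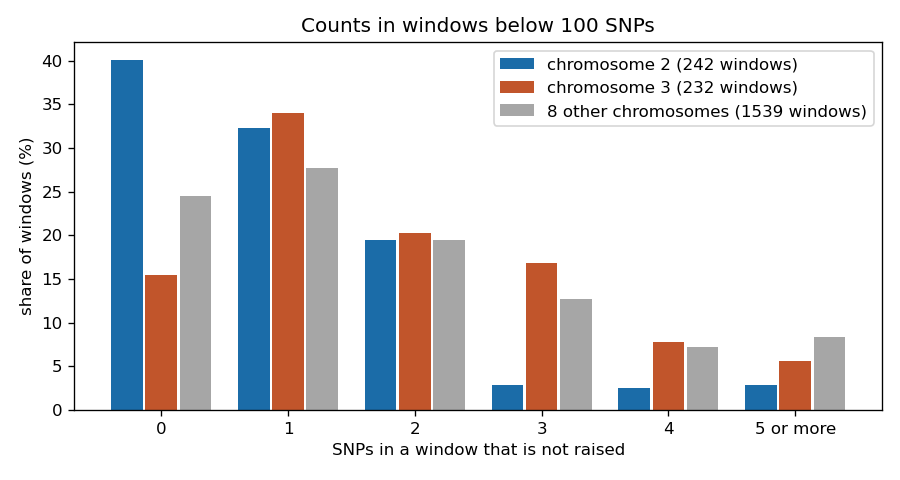
Share of windows in percent (y, from 0) by number of SNPs (x), among windows below 100 SNPs, for chromosome 2 (242 windows), chromosome 3 (232) and the 8 other chromosomes together (1539). Windows with 0 SNPs make up 40.1% on chromosome 2, 15.5% on chromosome 3 and 24.6% on the others.

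Chromosome 2 held a long run of empty windows, and clustering of its empty windows in general was not tested. A run of 12 windows, chr2:132000001-144000000, held no SNP, and it was the longest such run in the genome, as the longest on any other chromosome had 8 windows. At a limit of 3 counts such a run allows at most 0.25 SNPs per Mb, and more at the 3.69 counts that the Poisson interval reaches. The run was picked because it was empty, so this limit is a description only. With the chromosome cut into 10 parts of nearly equal length (deciles), 19 of the 25 windows in the sixth decile, which holds this run, were empty, and the mean was 0.280 (0.113 to 0.577). Chromosome 3 had no run of more than 3 empty windows. Its lowest decile, from 169000001 to 193000000, held 0.875 SNPs per window (0.542 to 1.34) and 10 of 24 windows were empty, while none of 24 was empty from 24000001 to 48000000.

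Near the end of chromosome 2 the low counts went up. In the last decile, the 22 windows that were not raised held 3.36 SNPs on average (2.64 to 4.22), against 0.280 to 1.28 in the other deciles. All 7 windows of chromosome 2 with 5 or more SNPs that were not raised lay there, between 221000001 and 233000000, on the side of the stretch that faces the centre of the chromosome. The 10 windows before the stretch held 2, 6, 5, 6, 0, 1, 1, 6, 12 and 6 SNPs, a mean of 4.50 (3.28 to 6.02), and the highest of them, with 12, began at 231000001. The 9 windows after it held 2, 4, 2, 3, 4, 2, 2, 0 and 0, a mean of 2.11 (1.27 to 3.3). The windows of 12 and 6 SNPs were thus followed by that of 114 and then by those of more than 1000.

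No flank of the stretches of chromosome 3 had a mean as high as the 4.50 before the stretch of chromosome 2. The 10 windows before the first stretch held 1.1 SNPs on average (0.549 to 1.97) and the 10 after it 2.6 (1.70 to 3.81), the 10 before the second 1.6 (0.915 to 2.60) and the 10 after the third 1.7 (0.990 to 2.72). These intervals overlapped that of all 232 windows of the chromosome that were not raised, 1.70 to 2.06. Those 232 include the flanks, so the overlap is no test. The highest counts of chromosome 3 below the limit, 7 SNPs, were in windows that began at 28000001 and 239000001, and the windows of 6 that came next began at 105000001, 129000001 and 158000001. That at 28000001 was the last of the 10 windows after the first stretch, and the other 4 lay outside the 10 windows on either side of any stretch. On chromosome 2, the 5 highest were all among the 10 windows before the stretch. The last decile was then left out because of its high counts on chromosome 2, so falls in the values of that chromosome follow from the choice. Without it, the mean of chromosome 2 was 0.859 and the variance of its low counts fell from 1.82 to 0.992 times their mean. The correlation of neighbouring windows fell from r = 0.45 (240 pairs) to 0.12 (219 pairs). On chromosome 3 the corresponding values were 1.16 and 1.1 for the variance and 0.09 (228 pairs) and 0.09 (210 pairs) for the correlation. Such values were not particular to chromosome 2. Chromosome 1, without a raised window, had a variance of 2.14 times the mean and r = 0.48. Chromosome 4, also without one, had 1.76 and 0.35, whereas chromosome 9, again without one, had 1.03 and -0.01. Over the 8 other chromosomes the variance ranged from 1.03 to 11.0 times the mean. These are descriptions across neighbouring windows of the same libraries, which share depth and alignment.

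**Figure D5:**
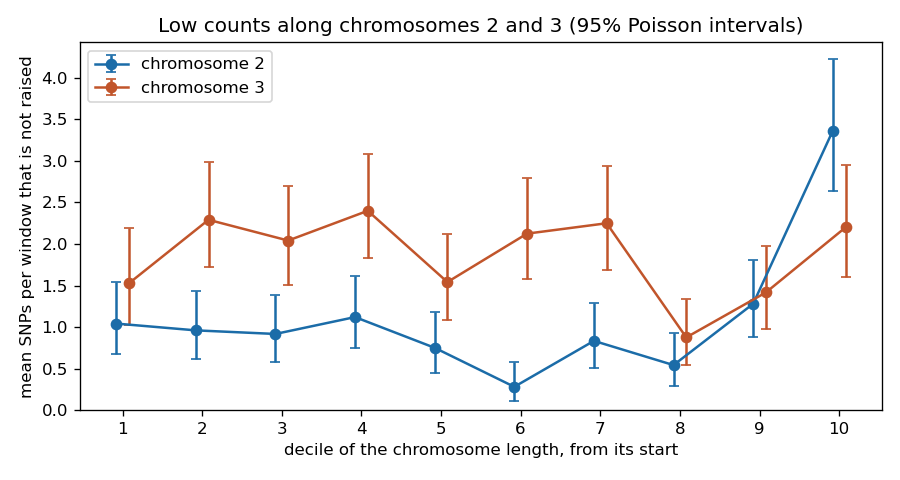
Mean number of SNPs per window that is not raised (y, from 0) by decile of chromosome length (x), with 95% Poisson intervals for counting error as bars. Chromosome 3 lies above chromosome 2 in deciles 1 to 9, with overlapping intervals in several of them, and chromosome 2 is higher in the last, with 3.36 against 2.20.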

How the data were processed

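The authors trimmed paired reads with Cutadapt 3.1, aligned them to W22 with BWA-MEM 0.7.17, filtered by mapping quality, removed duplicates with SAMtools 1.10 and called SNPs with Freebayes, keeping those that passed quality and depth filters at an allele frequency of 1 (versions per the submitters' processing notes). The deposited counts are SNPs per 1-Mb window, not read counts, without normalization, positions or depth. How SNPs were binned, and whether they follow the later marker check against the *TPD* assembly, is not given in the sources used here. A mapping filter drops repeated sequence, so windows with few callable bases and windows with few differences cannot be told apart.

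Starts were written 1-based. Windows with at least 100 SNPs were called raised and adjacent raised windows formed a stretch. Poisson and Wilson intervals (95%) cover counting error only. Read depth is unknown. The joining of raised windows into stretches, not the limit itself, was tested on simulated data. All raised windows, the windows beside them, the windows of the gap and the 5 highest other windows per chromosome are named. No gene was placed, as no W22 annotation was used here. Windows, lists and limits were chosen with earlier results of these data known. Figures were drawn with matplotlib 3.10.9 in Python 3.11.15, and values computed with SciPy 1.17.1, pandas 2.3.3 and NumPy 2.4.6.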

Additional observations from a re-analysis of the deposited data

How the results depend on the processing

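Of 91 values under other settings, 68 stayed within 1.5 times (numbers of windows, stretches, SNPs and lengths) or within the 95% interval (means and shares), and 23 did not. A limit of 50 SNPs moved nothing. At 2000 SNPs chromosome 2 had 0 raised windows, 0 stretches, 0 Mb and 0 SNPs in them, and so no mean, and chromosome 3 had 4 raised windows, 4 Mb and 9843 SNPs. The mean per raised window of chromosome 2, 780, was 1114 at 250, 500 and 1000 SNPs and 1154 without the end windows of longer stretches. That of chromosome 3, 1731, was 2107 at 1000 SNPs, 2461 at 2000 and 1863 without end windows. The mean outside raised windows of chromosome 2 was 1.55 at 250, 500 and 1000 SNPs and 10.6 at 2000, as raised windows then entered it, and 1.81 without empty windows. On chromosome 3 it was 12.7 at 1000 SNPs, 33.2 at 2000 and 2.21 without empty windows. The share of all SNPs was 7.11% in raised windows alone. Joining gaps of 5 Mb merged the last 2 stretches of chromosome 3. At 1000 SNPs chromosome 3 had 4 stretches instead of 3, as the window of 809 SNPs then parted the first, a change within 1.5 times. No replicate could be left out, as the table has 1 column.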
